A study of Homo sapiens with 6 samples.

Results

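Regions with a listed NRF2 peak close to an end of a protein-coding gene numbered 439. They were among 7386 regions that any library listed outside crowded stretches of the genome. The 439 were chosen by position alone. Peaks of the 4 lists on chromosomes 1 to 22 and X sharing at least 1 bp were joined, and the summit of the peak with the highest −log10 q was taken as the region's summit. Megabases holding more than 20 joined regions were left out (19331 regions with them), and a region was kept when its summit lay within 2500 bp of either end of a protein-coding gene in RefSeq. The 77 megabases left out held 0 regions of this kind, so that step removed none. NRF2 had been immunoprecipitated with its chromatin and the DNA sequenced (ChIP-seq), in cells of the established human microglial line HMC3. There were 2 libraries of vehicle-treated cells and 2 of cells given CDDO-Im at 30 nM for 4 h, and the 2 input samples were not analysed here. Treatment is described identically for every sample in the labels, which do not name the vehicle, so the groups rest on the sample titles. Nothing in the labels says that the replicates came from separate cultures, so p-values measure only the spread between these libraries, which may be technical.

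NRF2 is a basic leucine zipper transcription factor that KEAP1 holds in the cytoplasm and marks for degradation. CDDO-Im is a synthetic triterpenoid that reacts with KEAP1 and lets NRF2 accumulate, after which NRF2 pairs with a small MAF protein and binds the antioxidant response element (ARE). Its best known targets make glutathione and NADPH, reduce thioredoxin and quinones, and handle heme and iron, and in microglia NRF2 is studied for its restraint of oxidative and inflammatory responses.

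Of the 439 regions, 17 had their summit inside the promoter window of a protein-coding gene. The window ran from 250 bases before to 50 after the start in RefSeq (GRCh38.p14). Shown are 6 of these windows, each with a match to the ARE core. They are not those with the match nearest to the summit: it lay 42 bp away in ME1 and 4 bp away in PIR, which is not shown. The table held 21983 such windows, and 357 of the 439 nearest genes were matched in it. The start in that table can lie inside the gene as annotated, whose outermost ends gave the distances: LRRFIP2, PRR7, MSANTD3, MAFF and IKBKG have a summit in the window but lie 1069, 2115, 2319, 886 and 867 bp inside the gene's outer start. Each stretch runs 5′ to 3′ on the gene's strand, reaches up to 60 bases to either side of the summit, and has the match to the ARE core in capitals. GCLM (chr1:93909431-93909536, minus strand), ME1 (chr6:83431166-83431286, minus strand) and AIFM2 (chr10:70132826-70132903, minus strand) belong to the antioxidant response: GCLM is the modifier subunit of the enzyme that limits glutathione synthesis, ME1 is the cytosolic malic enzyme that makes NADPH, and AIFM2 (FSP1) reduces coenzyme Q and restrains lipid peroxidation. IFRD1 (chr7:112423035-112423155, plus strand), a transcriptional coregulator, had the most tags of the 17 windows. LBR (chr1:225428822-225428938, minus strand), the lamin B receptor, and GABRR3 (chr3:98035334-98035454, minus strand), a GABA receptor subunit, are not classical targets of NRF2.
GCLM: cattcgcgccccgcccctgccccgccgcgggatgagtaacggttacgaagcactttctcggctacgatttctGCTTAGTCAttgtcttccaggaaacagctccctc
ME1: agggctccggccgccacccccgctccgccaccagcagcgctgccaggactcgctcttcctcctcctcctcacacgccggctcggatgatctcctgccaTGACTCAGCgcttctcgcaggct
AIFM2: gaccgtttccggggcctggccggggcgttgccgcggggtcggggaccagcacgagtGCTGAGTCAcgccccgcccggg
IFRD1: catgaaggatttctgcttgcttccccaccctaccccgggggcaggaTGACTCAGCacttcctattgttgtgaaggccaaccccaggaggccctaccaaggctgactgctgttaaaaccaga
LBR: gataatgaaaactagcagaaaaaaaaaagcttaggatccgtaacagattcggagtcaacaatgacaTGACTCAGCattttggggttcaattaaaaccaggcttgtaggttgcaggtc
GABRR3: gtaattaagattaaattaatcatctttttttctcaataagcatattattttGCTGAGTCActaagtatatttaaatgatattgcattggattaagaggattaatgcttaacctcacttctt

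The ARE core was searched as TGACNNNGC on both strands and was found in 14 of the 17 windows (82.4%), against 13.8% of all 21983 windows. Its strictest form, TGACTCAGC, stood in 10 windows (58.8%), against 0.496% of all. That form contains the AP-1 site TGACTCA, which was present in 11 windows (64.7%), against 4.02% of all, so the 2 searches overlap. The IKBKG window held an AP-1 match 12 bp from its summit without holding TGACTCAGC. Unlike the AP-1 site, the GC box, CCAAT box and E-box were not more frequent in the 17 windows. The GC box GGGCGG stood in 9 (52.9% against 56.2%), the CCAAT box in 4 (23.5% against 34.7%) and the E-box CACGTG in 1 (5.88% against 8.32%). The median distance from the summit to the centre of the nearest match was 12 bp for the ARE core and 11 bp for the AP-1 site. It was 48 bp for the GC box and 80 bp for the CCAAT box. In the AIFM2 window the match lay 0 bp from the summit, in GABRR3 5 bp, in IFRD1 and LBR 10 bp, in GCLM 16 bp and in ME1 42 bp. The windows of EEF1A1, PARP2 and MAFF held no match to the core. A match is a description of the letters in the window and not a measured site.

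**Figure D1:**
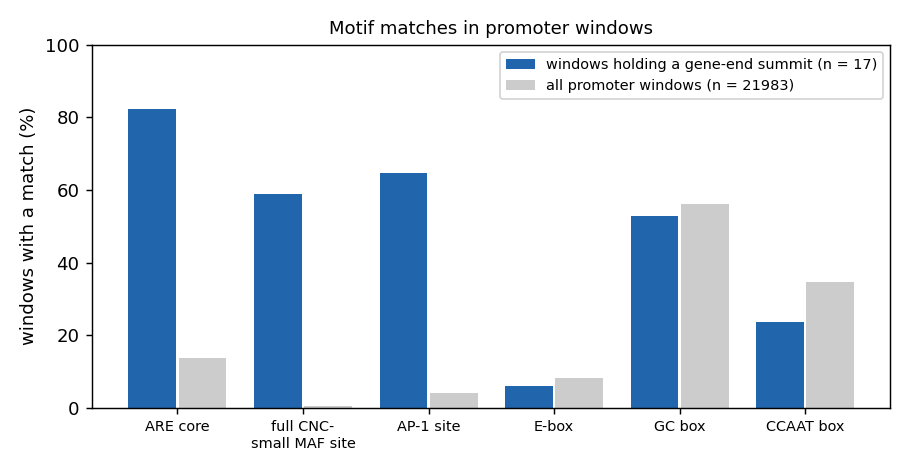
Share of promoter windows (%, vertical axis) with at least 1 match to each motif, for the 17 windows holding a gene-end summit (blue) and all 21983 windows (grey). The ARE core is matched in 82.4% of the former and 13.8% of the latter, while the GC box is matched in 52.9% and 56.2%.

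Windows with a match included regions that rested on a single library. Of the 17 windows, 7 were listed by both CDDO-Im libraries and 10 by 1 CDDO-Im library alone, and the core was matched in 5 of the 7 and 9 of the 10. None of the 17 was listed by vehicle libraries alone (0), beside 86 of the 439 regions. Of all 7386 regions, 28.6% were in both CDDO-Im lists, 15% in CDDO-Im 1 alone and 35.3% in CDDO-Im 2 alone. Vehicle 1 alone listed 10.9% of them and vehicle 2 alone 8.91%. With 17 windows these counts are small. Tags, the immunoprecipitated fragments counted at a summit, were few in the single-library windows. CDDO-Im 2 listed MSANTD3 and IKBKG, the NEMO subunit of the IKK complex, with 16 tags each. It listed LRRFIP2 with 12, MKLN1 with 11, PRR7 with 10, AIFM2 with 9, PTGES3 with 7, SLC26A1 with 6 and MAFF, a small MAF partner of NRF2, with 5. CDDO-Im 1 alone listed PIR, an iron-binding protein known as an NRF2 target, with 7 tags. A library that lists no peak at a place has no value there, and its occupancy may lie just under the authors' threshold.

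The first comparison asks how many gene-end regions each library listed. Vehicle 1 and 2 listed 82 and 80, and CDDO-Im 1 and 2 listed 186 and 295. Both CDDO-Im libraries listed more than both vehicle libraries, a difference of 1.53 on the log2 scale (2.89-fold). With 2 libraries against 2, the exact two-sided permutation test gave p = 0.333, the smallest it allows. Over all regions outside dense megabases the libraries listed 1215, 1271, 3249 and 4789, and the difference was 1.67 (3.17-fold, exact permutation p = 0.333). The lowest background in each list, which stood for depth, was 0.316, 0.315, 0.332 and 0.367 tags. It also depends on the fragment length, and the shortest peaks differed, at 201, 169, 206 and 177 bp. The whole lists, with dense megabases, held 4227, 7448, 4024 and 12433 peaks. What depth contributed to the numbers of regions was not tested.

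Gene-end regions took a similar small share of every list. The share was 6.75% of the regions in vehicle 1 (exact 95% binomial interval 5.4 to 8.31), 6.29% in vehicle 2 (5.02 to 7.77), 5.72% in CDDO-Im 1 (4.95 to 6.58) and 6.16% in CDDO-Im 2 (5.5 to 6.88). These intervals overlap and cover counting error only. The groups did not overlap, but the difference of −0.58 percentage points was small (exact two-sided permutation p = 0.333, the smallest possible). Median tags at gene-end summits were 7, 8, 10 and 12, beside 6, 7, 10 and 11 at the other regions of the same libraries.

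By the libraries that listed them, 78 gene-end regions (17.8%) were in both CDDO-Im lists and neither vehicle list, beside 19.3% of all 7386 regions. All 4 libraries listed 22 (5.01%, beside 3.11% of all regions), and both CDDO-Im libraries with 1 vehicle library listed 28 (6.38%, beside 6.2%). Regions in both vehicle lists and neither CDDO-Im list numbered 0, beside 4 of all regions (0.0542%). A single library alone listed 308 (70.2%, beside 70.1%), of which 165 were in CDDO-Im 2. Apart from the regions of all 4 libraries, whose share was above that of all regions, these shares lay near their background. The class of 78 depends on both CDDO-Im libraries. With a peak required only in the remaining CDDO-Im library, it would be 135 without CDDO-Im 2 and 243 without CDDO-Im 1.

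**Figure D2:**
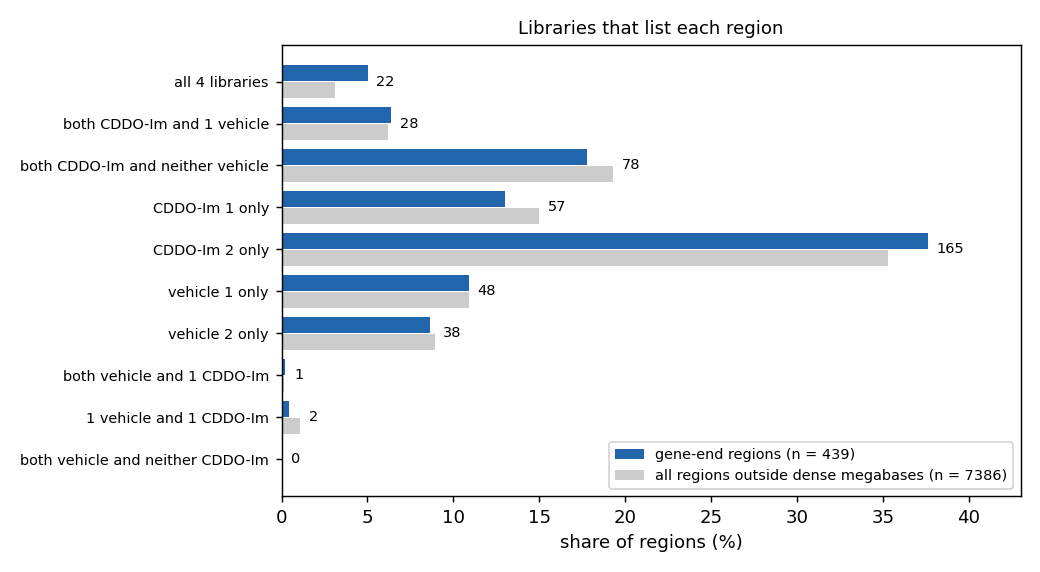
Share of regions (%, horizontal axis) by the libraries that listed them, for the 439 gene-end regions (blue, with their number) and all 7386 regions outside dense megabases (grey). The blue and grey bars are of similar length in most rows, 17.8% and 19.3% for both CDDO-Im and neither vehicle, while regions of all 4 libraries take 5.01% and 3.11%.

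Along the gene, the regions were spread almost evenly over the distance allowed. In steps of 500 bp from the nearest gene end they numbered 93, 80, 90, 83 and 93, and 206 of the 439 (46.9%) had their summit inside the gene. The nearest end was the gene start for 189 regions and the other end for 168, and strand was not in the table for the rest. Of the regions within 500 bp before a start, 13 of 25 (52%) were in both CDDO-Im lists, beside 28.6% of all regions and 2 of 10 in the next 500 bp before it. Within 500 bp after a start it was 2 of 8. The next highest count of this kind lay inside genes, between 500 and 1000 bp from the other end, with 11 of 20 (55%). The share of regions nearest to a start was 49.3% and 46.7% in the vehicle libraries and 48.3% and 53.7% in the CDDO-Im libraries, which overlap (difference 3.05 percentage points, exact two-sided permutation p = 0.667).

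The distance limit cut through a continuous range. Just inside it lay ASF1A and DIDO1 at 2489 bp with 14 and 11 tags in CDDO-Im 2, and ARHGDIB at 2486 bp with 5 tags in vehicle 1. Just outside were PCID2 at 2510 bp with 6 tags in vehicle 1, and CCDC180 at 2520 bp and CLU at 2529 bp with 9 and 10 tags in CDDO-Im 2. Within the limit of more than 1 gene lay 42 of the 439 regions, so a gene named for a region lies near it and is not a measured target. Single regions are named by the nearest gene, while counts over gene lists take every gene within the limit.

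**Figure D3:**
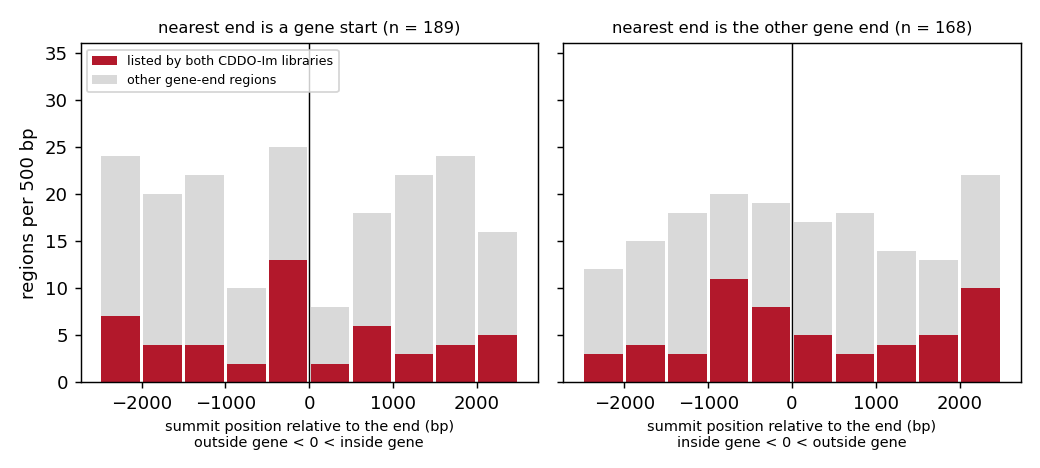
Number of gene-end regions per 500 bp (vertical axis) by position of the summit relative to the nearest end (bp, horizontal axis), for 189 regions nearest to a gene start and 168 nearest to the other end. Red marks regions in both CDDO-Im lists, and the bin just before the start holds 13 of 25, the most red of any bin.

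The 22 gene-end regions listed by every library allow tags to be compared between groups. Tags were divided by each library's lowest background, and a ratio of CDDO-Im over vehicle was formed from means on the log2 scale. The lower CDDO-Im library exceeded the higher vehicle library in 15 of the 22 (68.2%), beside 87% of all 230 such regions. Both lay below in 0, beside 3.91% of all. The median ratio was 2.16 (quartiles 1.19 to 3.32), beside 3.21 over all 230 regions. Fitted over all 230 regions, limma with Benjamini-Hochberg adjustment called 14 of the 22 higher, beside 86.5% of all, and none lower (0, and 0 of 230). The 14 are also those with an unadjusted p under 0.05.

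NQO1, the quinone reductase that is the standard readout of NRF2 activity, had 12 and 20 tags in the vehicle libraries and 68 and 97 in the CDDO-Im libraries at a region 456 bp before its start (chr16:69726731-69727237, hg38). IFRD1 had 11 and 20 tags against 62 and 94 at its promoter (chr7:112422826-112423274). SNAI2, the transcriptional repressor Slug, had 9 and 7 against 37 and 57 at 2282 bp from a gene end. In all 3 the groups were far apart: the log2 ratios were 2.24 at NQO1, 2.22 at IFRD1 and 2.38 at SNAI2, with an SE of 0.41 in each, and limma's adjusted p was 8.18e-07, 1.1e-06 and 2.88e-07. The SE is the same for every region because limma pooled the spread fully. The size of these adjusted p depends on that pooling. In each of the 3 regions limma's adjusted p was 0.0157 with dense megabases kept in the fit and 0.00103 with a replicate block.

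The other 11 regions called by limma had smaller ratios than these 3. TOMM34, a cochaperone of mitochondrial import, had 11 and 8 tags in vehicle and 39 and 52 in CDDO-Im (log2 ratio 2.12). SGTB, a cochaperone with tetratricopeptide repeats, had 19 and 17 against 54 and 102 (1.90), and the region also lies within the limit of NLN. SLC16A9, a member of the monocarboxylate transporter family, had 8 and 10 against 26 and 30 (1.49). AREL1, a ubiquitin ligase, had 8 and 9 against 16 and 34 (1.31). MAP10, a microtubule-associated protein, had 11 and 6 against 20 and 45 (1.74), and TMEFF2 had 13 in both vehicle libraries against 35 and 64 (1.72). CEBPZOS, SPATS2, CDK5R2, TEKT5 and TIAL1 had log2 ratios from 0.99 to 1.55. CDK5R2 had 9 and 11 tags against 13 and 42, and TIAL1 9 and 8 against 12 and 29. TEKT5 had 8 and 10 against 15 and 29, and SPATS2 11 in both vehicle libraries against 18 and 40. In these 4, as in the other regions called, CDDO-Im 1 stood nearer to vehicle than CDDO-Im 2 did. With dense megabases kept in the fit, CDK5R2, TEKT5, TIAL1 and SPATS2 no longer passed. The adjusted p also missed the threshold at TIAL1 without vehicle 1 (0.0642) or vehicle 2 (0.11), at CDK5R2 (0.104) and TEKT5 (0.113) without vehicle 1, and at MAP10 without CDDO-Im 1 (0.0537). All these calls need CDDO-Im 2. Without it, limma called 0 of the 22 and 0 of the 230 regions higher, the lowest adjusted p among the 22 was 0.066, and 9 had an unadjusted p under 0.05. The log2 ratios without CDDO-Im 2 were 2.06 at NQO1, 1.99 at IFRD1, 1.98 at TOMM34 and 1.47 at SLC16A9, and the median ratio over all 22 regions was 1.57.

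Regions that did not pass the test were mainly at heat shock genes. HSPA1A and HSPA1B, which encode the inducible HSP70 chaperone, had 2 regions each within 1 kb of an end, and HSPA2, a related HSP70 gene, had 1 at 1182 bp. HSPA2 had 15 and 19 tags in vehicle and 20 and 18 in CDDO-Im, a log2 ratio of 0.021 (adjusted p = 0.96, limma). At 869 bp from HSPA1B the tags were 19 and 20 against 13 and 23, a log2 ratio of −0.32. The log2 ratios of the 5 HSP70 regions ran from −0.32 to 0.49 and the groups overlapped in 4 of the 5. HSPA1A and HSPA1B are near-identical copies, so reads could be assigned to either and their 4 regions are not independent. Another region at HSPA2, 1824 bp from its end, had 8 and 9 tags in vehicle and 8 in CDDO-Im 2, and was the sole gene-end region in both vehicle lists and 1 CDDO-Im list. Without the HSP70 genes, 14 of 17 regions (82.4%) had both CDDO-Im libraries above both vehicle libraries and the median ratio was 2.82.

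The other regions without a call were at NDUFS7, TMEM131L and PARP2. NDUFS7, a subunit of respiratory complex I, had 33 and 30 tags in vehicle and 34 and 32 in CDDO-Im (chr19:1393089-1393462), a log2 ratio of −0.080. TMEM131L had 15 and 17 against 16 and 14 at 74 bp from an end (log2 ratio −0.24). In neither did both CDDO-Im libraries lie to the same side of both vehicle values. PARP2, an enzyme of DNA repair that shares its promoter stretch with the gene of the RNA component of RNase P (RPPH1), had 26 and 9 against 15 and 52. Its replicates differed more than its groups, with a log2 ratio of 0.72 (adjusted p = 0.0925). Within ±0.5 on the log2 scale lay 7 of the 22 gene-end regions (31.8%), beside 13% of all 230 regions. This counts all 5 HSP70 regions.

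**Figure D4:**
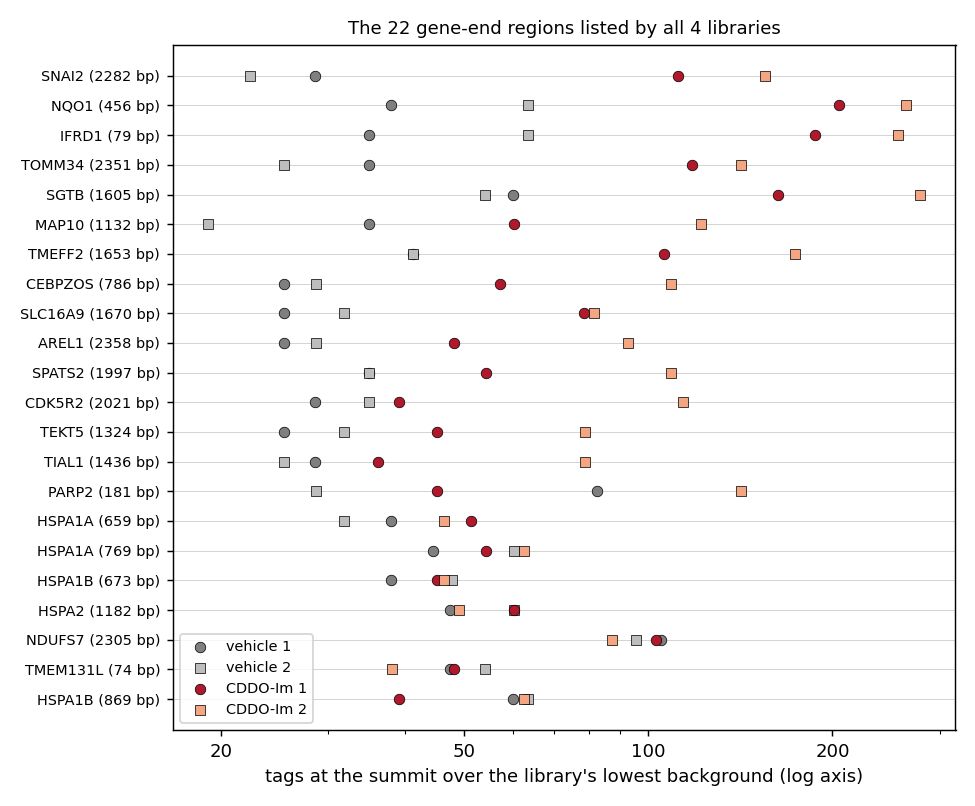
Tags at the summit over the library's lowest background (log axis) for the 22 gene-end regions of all 4 libraries, ordered by ratio, with 1 point per library and the distance to the gene end in brackets. At SNAI2, NQO1 and IFRD1 both CDDO-Im points lie far to the right of both vehicle points, and at HSPA2, NDUFS7 and TMEM131L the 4 points lie close together.

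**Figure D5:**
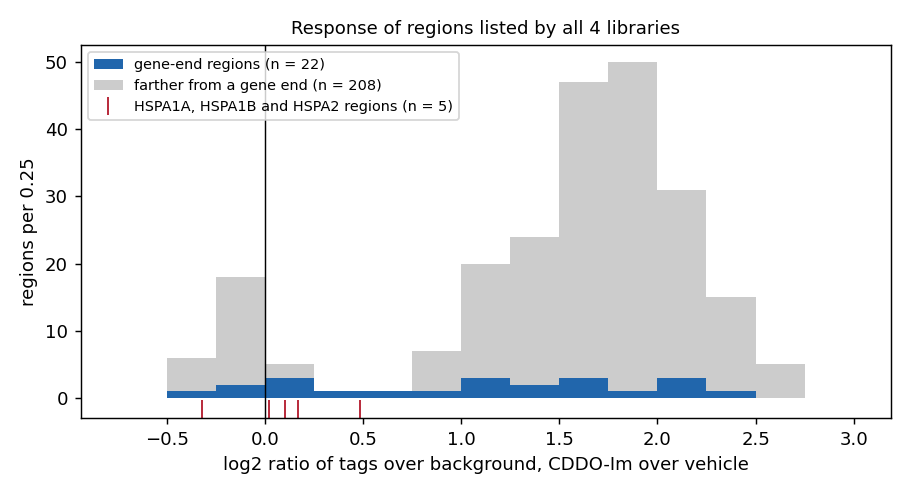
Number of regions of all 4 libraries per 0.25 of the log2 ratio of CDDO-Im over vehicle, stacked for 22 gene-end regions (blue) and 208 regions farther from a gene end (grey), with the HSP70 regions as red ticks. The gene-end median is 2.16-fold and the median of the others 3.25-fold, and the 5 HSP70 ticks lie between −0.32 and 0.49.

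Of the 28 gene-end regions in both CDDO-Im lists and 1 vehicle list, 26 (92.9%) had both CDDO-Im libraries above that vehicle library, beside 92.6% of all 458 regions of this class. The class also requires a peak in both CDDO-Im libraries. EGLN3, a prolyl hydroxylase of the hypoxia pathway, had 9 tags in vehicle 2 and 47 and 65 in the CDDO-Im libraries at 577 bp before its start. SLC26A11, an anion transporter, had 11 in vehicle 2 and 45 and 85, and TBC1D16, a Rab GTPase-activating protein, had 7 in vehicle 1 and 31 and 77. IL15, a cytokine for T and natural killer cells, had 10 in vehicle 2 and 30 and 34. LBR had 12 in vehicle 1 and 27 and 57 at its promoter, and GCLM had 11 in vehicle 2 and 20 and 28 there. ABCB6, a porphyrin transporter, had 8 in vehicle 1 and 14 and 34. In each the CDDO-Im tags were above those of the vehicle library that listed it. EEF1A1, a translation factor and one of the most transcribed genes, had 7 in vehicle 1 and 8 in each CDDO-Im library.

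Among the 78 regions of both CDDO-Im and neither vehicle list, tags ran from 6 to 32 in CDDO-Im 1 (median 11) and from 6 to 48 in CDDO-Im 2 (median 17). The same class farther from genes had medians of 11 and 16. GSTM5 and FECH were the genes of the detoxification and heme lists among the 15 highest. GSTM5, a glutathione transferase in a cluster of related genes, had 32 and 38 tags beyond its far end (1205 bp). FECH, ferrochelatase, which inserts iron into protoporphyrin to form heme, had 18 and 30 at 295 bp from its start, and TXNRD3, a thioredoxin reductase, had 17 and 36. CTH, which makes cysteine by transsulfuration, had 16 and 26. IL6, the inflammatory cytokine, had 23 and 39 at 288 bp from its start (chr7:22726752-22727101). LRRC8D, a subunit of the volume-regulated anion channel, had 29 and 48, and SOS1, the exchange factor for RAS, had 26 and 41. GCNT2, a glycosyltransferase, had 24 and 32, RAD51C, a recombination protein, had 18 and 23, and ACAP2, an ARF GTPase-activating protein, had 17 and 29. NXPE3, LRRC49, TMC1, SYT15 and ITM2B complete the 15 highest, with 17 to 23 tags in CDDO-Im 1 and 18 to 40 in CDDO-Im 2. CDDO-Im 2 had more tags than CDDO-Im 1 at each of these genes but TMC1.

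Lower in the same class, NQO2, a quinone reductase, had 11 and 32 tags at 2070 bp from its start, FTL, the ferritin light chain, had 8 and 33 at 1332 bp, a region that also lies within the limit of BAX, and ME1 had 10 and 12. SULT1A3 and SULT1A4, which encode a sulfotransferase of catecholamines, had 15 and 27 and 14 and 31 near the start of each copy. They are near-identical copies, so the assignment is uncertain. LITAF, a regulator of endosomal and lysosomal sorting, had 11 and 26, and IL33, an alarmin cytokine, had 8 and 9.

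Of all 19974 protein-coding genes, 473 (2.37%) had a gene-end region and 144 (0.721%) one of both CDDO-Im libraries. Of 113 genes on 7 lists of NRF2 targets and regulators, 17 (15%) had a region and 9 (7.96%) one of both CDDO-Im libraries, and only NQO1 one of both vehicle libraries (1 gene). Heme and iron genes had 3 of 13, ABCB6, FECH and FTL, all in both CDDO-Im lists. Detoxification genes had 5 of 29, glutathione genes 4 of 16, thioredoxin genes 3 of 14, NADPH genes 1 of 10 and NRF2 regulators 1 of 15, while autophagy and proteasome genes had 0 of 16. Of the 17 genes, 8 rested on a single library. CDDO-Im 2 listed the aldehyde dehydrogenase ALDH3A2 with 19 tags, peroxiredoxin PRDX1 with 13, thioredoxin TXN with 9, MGST1 and the efflux pump ABCC2 with 8 each, glutathione reductase GSR with 7 and MAFF with 5. CDDO-Im 1 listed the cystine transporter SLC7A11 with 7. These lists were chosen with earlier results of these data known, so the counts are a description.

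Among lists of other functions, heat shock genes had 3 of 12 (25%), namely HSPA1A, HSPA1B and HSPA1L, the last through regions nearest to HSPA1A. Inflammatory genes had 1 of 17 (5.88%, IL6) and highly transcribed genes 6 of 14 (42.9%). The share was 15% in the NRF2 lists and 2.37% in all genes, so a raised share was not particular to the NRF2 lists. Of the highly transcribed genes, ENO1, an enzyme of glycolysis, had 10 tags in CDDO-Im 2, and GAPDH, another, had 9 in the same library, at a region whose nearest gene is NCAPD2. TUBA1C, an alpha tubulin, had 7 in CDDO-Im 1, and EEF2, a translation elongation factor, had 5 in vehicle 2. EEF1A1 was the 1 gene of this list in both CDDO-Im lists (7.14%, beside 7.96% of the NRF2 lists and 0.721% of all genes). All 3 heat shock genes were (25%), and these were in both vehicle lists too. AP-1, unfolded protein, microglial, mesenchymal, neuronal, lysosome and lipid, and circadian and cell cycle lists had 0 genes each. By family, ABC transporters had 4 of 46 (8.7%), interleukins and chemokines 5 of 83 (6.02%), solute carriers 9 of 386 (2.33%), zinc finger genes 12 of 545 (2.2%) and olfactory receptors 11 of 392 (2.81%). Olfactory receptors, the odorant receptors of the nose, thus had a share near that of all genes. Of these, 4 had a region in both CDDO-Im lists, among them OR8B2 with 11 and 18 tags. OR8B2 and OR8B3 were counted through the same region, as were the ABC transporters ABCA6 and ABCA9. Cytosolic ribosomal protein genes had 0 of 83, mitochondrial ribosomal protein genes 1 of 77 (MRPL24) and collagens 0 of 44. Interleukins whose region stood in both CDDO-Im lists were IL6, IL15 and IL33.

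The highest regions of a single library were not all from CDDO-Im. NGB, neuroglobin, had 43 tags at 1410 bp from its start in vehicle 2 and LY6S had 30 in the same library. CDDO-Im 2 alone listed MTMR2, a lipid phosphatase, with 24 tags, IMPG1 with 23 and RPS6KC1 with 23. No other library listed these regions, so their levels have no replicate. Regions listed by 1 library had medians of 6 tags in each vehicle library, 7 in CDDO-Im 1 and 8 in CDDO-Im 2, close to those of other single-library regions, at 6, 6, 6 and 8.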

How the data were processed

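Chromatin immunoprecipitation libraries of HMC3 cells, 2 vehicle and 2 CDDO-Im, were each deposited as a peak list. Per the submitters' processing notes, the tools were MACS2 2.2.7.1, BWA 0.7.17 and bcl2fastq 2.15.0, and the builds named are hg38 and GRCm38. Positions in the lists fit hg38. How the control, the peak threshold and duplicates were set was not given in sources used here. Each peak is named for 1 library, so calling was per library. Per peak, the authors deposited a fold enrichment (ratio), a −log10 p and a −log10 q, and a score. The deposited score is the −log10 q multiplied by 10, without decimals. The lowest deposited −log10 q was 1.31 to 1.33.

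Summit tags were worked back from the deposited fold enrichment, taken as tags plus 1 over background plus 1, and the deposited −log10 p, taken as the Poisson tail. Whole tags matched 100% of peaks in each library within 0.001 plus 0.0002 of the value, and 97.7% to 99.4% had a single match. The lowest background of a list stood for depth, as the lists hold no library totals, and it also depends on the fragment length, not stated in these sources. Most summits held few tags, which limits the precision of each ratio. Tags over that background were compared with limma 3.58.1 on the log2 scale, over the 230 regions of all 4 libraries, with an adjusted p under 0.05 as the threshold. Numbers and shares of regions were compared by exact two-sided permutation tests over libraries (scipy 1.17.1, Python 3.11.15). Shares have exact (Clopper-Pearson) 95% intervals.

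Genes, starts and promoter sequences came from RefSeq on GRCh38.p14, with a strand for 15813 of 19974 protein-coding genes. All 232 genes of the 17 lists were matched. The regions and gene lists were chosen with earlier results of these data known. Named regions were the 20 of all 4 libraries with the highest lowest tags, the 15 and 5 highest of both CDDO-Im with neither or 1 vehicle library, up to 6 per gene list, the 5 highest of 1 library and 3 to either side of the distance limit. SNAI2, MAP10, the promoter windows, family members and the remaining genes were chosen after their values were seen. One gene that the rule takes is not reported here. Tag recovery, region joining and the limma fit were tested on simulated data: limma called 60 of 60 regions simulated with a 4-fold change and 7 of 170 simulated unchanged. Alternatives were the distance limit, the −log10 q, dense megabases, other depth measures, each library left out and a replicate block.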

Additional observations from a re-analysis of the deposited data

How the results depend on the processing

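With gene ends taken within 1000 bp, 38 regions were in both CDDO-Im and neither vehicle list and 9 in all 4, of which 4 were higher in both CDDO-Im libraries and 3 called by limma, with a median ratio of 1.4. Then 11 NRF2-list genes had a region, and the difference in share reversed to 0.16 points. Within 5000 bp these were 133, 41, 32, 31, 2.93 and 27, with 1 region in both vehicle lists only and the difference in start share reversed to −2.37 points. With a −log10 q of at least 5, 9 regions were higher and limma called 8. With at least 10, 7 regions were in all 4 lists, 1 was higher, limma called 1, the median ratio was 1.01, 11 NRF2-list genes had a region and the start share difference reversed to −6.58. With dense megabases kept, the share difference reversed to 2.05 points. The cause of these changes was not tested. Leaving out 1 library at a time gave, for gene-end regions listed, 1.2 to 1.86 on the log2 scale; for both CDDO-Im and neither vehicle, 89 to 243; for both vehicle only, 0 to 48; for all 4, 22 to 39; for NRF2-list genes, 10 (without CDDO-Im 2) to 17; for the median ratio, 1.57 to 3.02; and for limma, 0 to 13, with the lone library assumed to vary like the other group. The share and start differences ranged from −0.771 to −0.314 and from 0.363 to 5.74 points. Log2 ratios that changed sign when a library was left out, none of them called with all 4 libraries, ranged from −0.0513 to 0.394 at HSPA1A (769 bp), from −0.0599 to 0.267 at HSPA1B (673 bp), from −0.658 to 0.0169 at HSPA1B (869 bp), from −0.152 to 0.193 at HSPA2, from −0.197 to 0.0378 at NDUFS7 and from −0.102 (without CDDO-Im 2) to 1.54 (without CDDO-Im 1) at PARP2, which was called at 1.48 without vehicle 1. Calls at CDK5R2, TIAL1, SPATS2 and TEKT5 were lost with dense megabases kept, those at TIAL1, CDK5R2 and TEKT5 also without vehicle 1, at TIAL1 without vehicle 2 and at MAP10 without CDDO-Im 1. The correlation of deviations between samples of the same number was −0.0433 over 230 regions. Their lists were alike in the shortest peak, 201 and 206 bp for number 1 and 169 and 177 bp for number 2. Whether samples of the same number were prepared together was not tested. With a replicate block limma called the same count, 14 of 22 and 199 of 230.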
